A study of Mus musculus with 13 samples.

Results

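Nkx2-1, Nkx2-2, Nkx6-1, Nkx6-2 and Shh, 4 homeobox transcription factors of the ventral nervous system and the signal that acts upstream of them in development, were followed in cultured mouse oligodendrocyte-lineage cells with and without Eed. The members were chosen by gene symbol, and all 5 had a row among the 13549 genes of the raw count table. RNA sequencing was done on oligodendrocyte precursor cells (OPCs), kept in growth medium with PDGF and NT-3, and on immature oligodendrocytes (iOLs), collected on day 2 after PDGF was taken away and the thyroid hormone T3 was added. The 4 groups were control OPCs (2 libraries), Eed cKO OPCs (3 libraries), control iOLs (2 libraries) and Eed cKO iOLs (2 libraries), all from brains of C57BL/6 mice. cKO stands for conditional knockout of Eed. Its product belongs to the core of PRC2, a Polycomb complex that methylates histone H3 on lysine 27 and keeps developmental genes silent.

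The brains were of postnatal day 7 for control OPC replicate 1 and cKO OPC replicates 1 and 2, and of day 6 for the other 6 libraries. Groups were taken from titles because control samples carry the genotype entry EED cKO as well. The sources used here do not state the Cre driver, the alleles of the controls or whether replicates are separate animals or cultures. The spread that the p-values measure is therefore that between these libraries and may be technical. Total counts ran from 17417529 to 19680398 a library. Eed lay at 16.8 to 21.7 CPM (counts scaled to library depth with TMM factors) in the 4 control libraries and at 11.8 to 14.6 CPM in the 5 cKO libraries. Its log2 fold change in cKO cells was −0.62 ± 0.17 in OPCs (edgeR adjusted p = 0.0847) and −0.55 ± 0.18 in iOLs (0.0973). Neither was under 0.05. The extent of the deletion was not tested, and the words without Eed refer to the cKO label. The OPC markers fixed for the check (7 of 7 in the table) summed to 12115 to 16926 CPM in control OPCs and 13999 to 14433 CPM in cKO OPCs, and to 7766 to 8399 and 4785 to 4912 CPM in control and cKO iOLs. Within that list Gpr17, a marker of committed precursors, fell in cKO iOLs from 3664 to 1035 CPM on average and Olig2 fell, Cspg4 rose from 82.6 to 137 CPM, and the other 4 were not called. Control OPC replicate 1 stood apart, with Lars2 at 5380 CPM and Mir6236 at 4456 CPM, so results that turn on it are given without it too.

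In the developing ventral neural tube, Shh is secreted by the notochord and floor plate and induces Nkx2-2, Nkx6-1 and Nkx6-2 in progenitors at different distances from the source, and these factors repress genes of more dorsal domains. In the forebrain, Nkx2-1 marks the medial ganglionic eminence and the preoptic area and specifies their neurons and glia. In the oligodendrocyte lineage, Nkx2-2 promotes differentiation and represses Pdgfra, and Nkx6-2 is found in differentiated oligodendrocytes, where it takes part in forming the junctions between myelin and axon. Several of these genes are classical targets of PRC2 in embryonic cells.

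Across the 4 groups the 5 genes followed 4 patterns. Nkx6-1 and Shh were highest in the cKO groups, Nkx2-1 was highest in control OPCs, Nkx2-2 was highest in control iOLs, and Nkx6-2 was high in both iOL groups. No gene of the table has a count of 0 in any library, and each reaches 10 counts in 4 libraries or more. Nkx2-1, Nkx2-2, Nkx6-2 and Shh reached 10 counts in all 4 control libraries. Nkx6-1 reached 10 counts in 2 control libraries and in every cKO library, so it would not have met that limit on its control libraries alone.

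**Figure D1:**
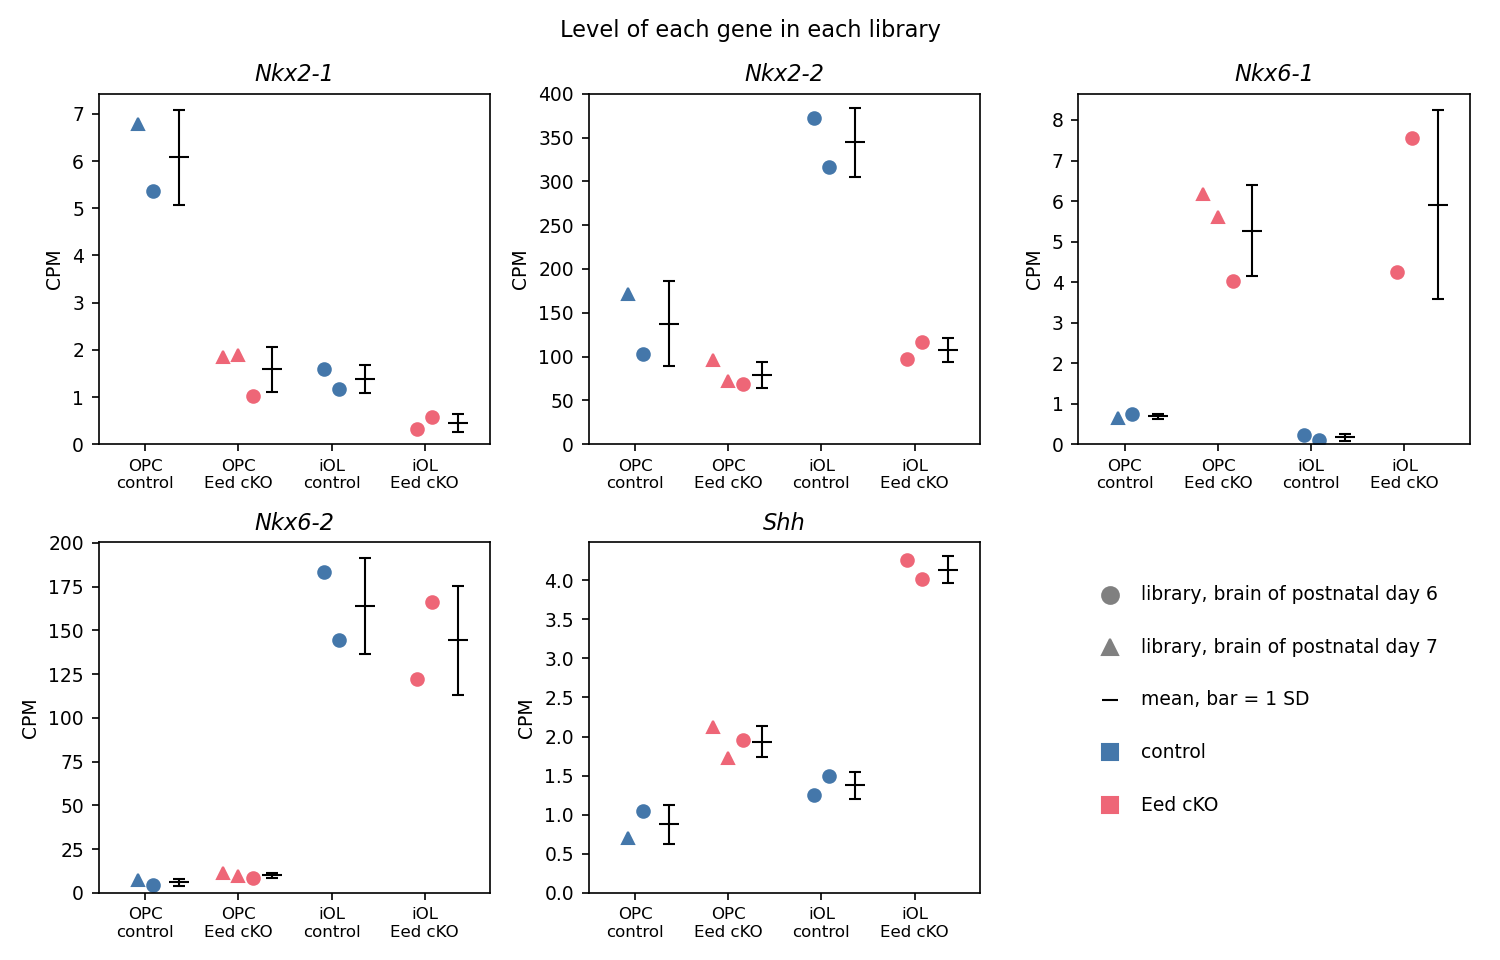
Level of each gene in CPM (linear axes from 0) in each of the 9 libraries, by group. Circles are brains of postnatal day 6 and triangles of day 7, blue is control and red is Eed cKO, and the black mark and bar beside each group are its mean and 1 SD. The cKO libraries lie between 4.03 and 7.56 CPM for Nkx6-1, where the control libraries lie at 0.737 CPM or less.

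The 250 bases before the annotated RefSeq start of the Nkx genes are shown to set these relatives side by side in CpG content. PRC2 is known to bind regions rich in unmethylated CpG. Whether CpG content bears on any change of these genes was not tested. Of the 5 genes, 4 had an entry in the RefSeq promoter table (GRCm38.p6, the assembly also called mm10). All 4 lie on the minus strand and are written 5′ to 3′ along the gene, and capitals mark each CpG.
Nkx6-1 (chr5:101664712-101664961): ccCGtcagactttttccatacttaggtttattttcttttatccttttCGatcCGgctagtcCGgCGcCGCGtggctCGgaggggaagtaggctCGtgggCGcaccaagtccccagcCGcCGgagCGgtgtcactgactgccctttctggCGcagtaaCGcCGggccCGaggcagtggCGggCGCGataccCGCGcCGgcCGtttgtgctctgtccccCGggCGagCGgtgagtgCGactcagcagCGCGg
Nkx6-2 (chr7:139582798-139583047): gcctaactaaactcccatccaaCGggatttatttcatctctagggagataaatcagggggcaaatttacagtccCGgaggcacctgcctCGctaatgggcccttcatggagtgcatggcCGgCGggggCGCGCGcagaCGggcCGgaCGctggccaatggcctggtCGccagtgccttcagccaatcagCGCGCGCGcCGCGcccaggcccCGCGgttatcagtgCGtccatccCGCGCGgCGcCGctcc
Nkx2-1 (chr12:56536909-56537158): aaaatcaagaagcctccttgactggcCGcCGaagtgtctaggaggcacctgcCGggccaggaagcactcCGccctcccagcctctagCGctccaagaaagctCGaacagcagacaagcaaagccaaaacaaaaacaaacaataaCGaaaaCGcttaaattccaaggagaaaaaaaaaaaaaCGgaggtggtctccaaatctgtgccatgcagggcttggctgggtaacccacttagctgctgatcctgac
Nkx2-2 (chr2:147186403-147186652): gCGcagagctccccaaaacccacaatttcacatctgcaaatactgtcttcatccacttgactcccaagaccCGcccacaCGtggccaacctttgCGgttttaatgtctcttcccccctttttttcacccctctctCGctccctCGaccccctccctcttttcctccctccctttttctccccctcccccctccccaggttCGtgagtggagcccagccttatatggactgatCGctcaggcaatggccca

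The Nkx6 windows held 30 (Nkx6-1) and 26 (Nkx6-2) CpG, and the Nkx2 windows 9 (Nkx2-1) and 8 (Nkx2-2), against a median of 6 over the 32851 promoter windows of the table. The share of all windows with fewer CpG was 94.1% for Nkx6-1, 90.4% for Nkx6-2, 59.7% for Nkx2-1 and 57.0% for Nkx2-2. The RefSeq span of Nkx2-2 starts further upstream, because longer transcript models exist, so its window lies inside that span. The Gli motif GACCACCCA, through which Hedgehog signalling acts, was searched on both strands and had no match in the 4 windows, where 0.225% of all windows hold one. The NK2-class motif CACTTNA, searched the same way, had 1 match among the 4, in the Nkx2-2 window (CACTTGA, from base −197 counted from the start), and 10.1% of all windows hold one. Matches are descriptions of these letters and not measured binding.

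**Figure D2:**
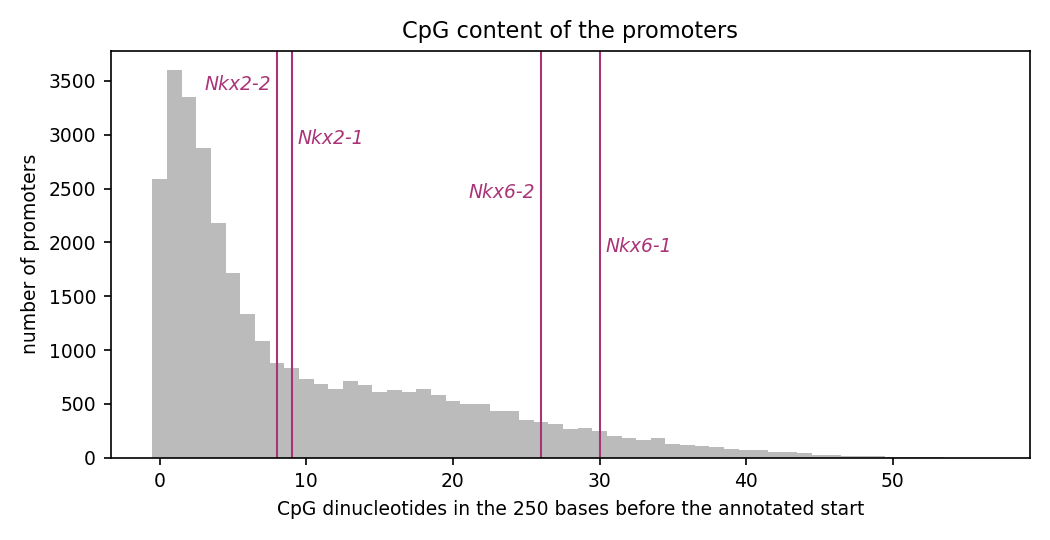
Number of CpG dinucleotides in the 250 bases before the annotated start (horizontal axis) against the number of promoters with that count (grey bars, 32851 promoters). Lines mark Nkx2-2 at 8, Nkx2-1 at 9, Nkx6-2 at 26 and Nkx6-1 at 30.

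Each comparison was fitted over all 13549 genes with edgeR's quasi-likelihood test, and a gene was called at a Benjamini-Hochberg adjusted p under 0.05. Log2 fold changes carry their standard error. In OPCs without Eed 1 of the 5 genes was called higher and 1 lower, against 2.94% and 0.303% of all genes (3.25% in either direction). In iOLs without Eed 2 were higher and 1 lower, against 7.08% and 3.51% (10.6% in either direction). Both counts of higher genes include Nkx6-1, whose row met the limit of the table through its cKO libraries. Over the 2 days from OPC to iOL 2 were higher and 2 lower in controls, against 21% and 25.3% of all genes (46.3% together), and 2 higher and 1 lower in cKO cells, against 18.5% and 21.8% (40.3% together). None of the 5 passed edgeR's test of whether the cKO effect differed between iOLs and OPCs, where 1.83% of all genes did (0.945% higher and 0.886% lower), 3 of the 5 had an unadjusted p under 0.05 and DESeq2 called 0. The cKO comparisons and the stage comparisons share libraries, so their values are given side by side and are not independent.

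**Figure D3:**
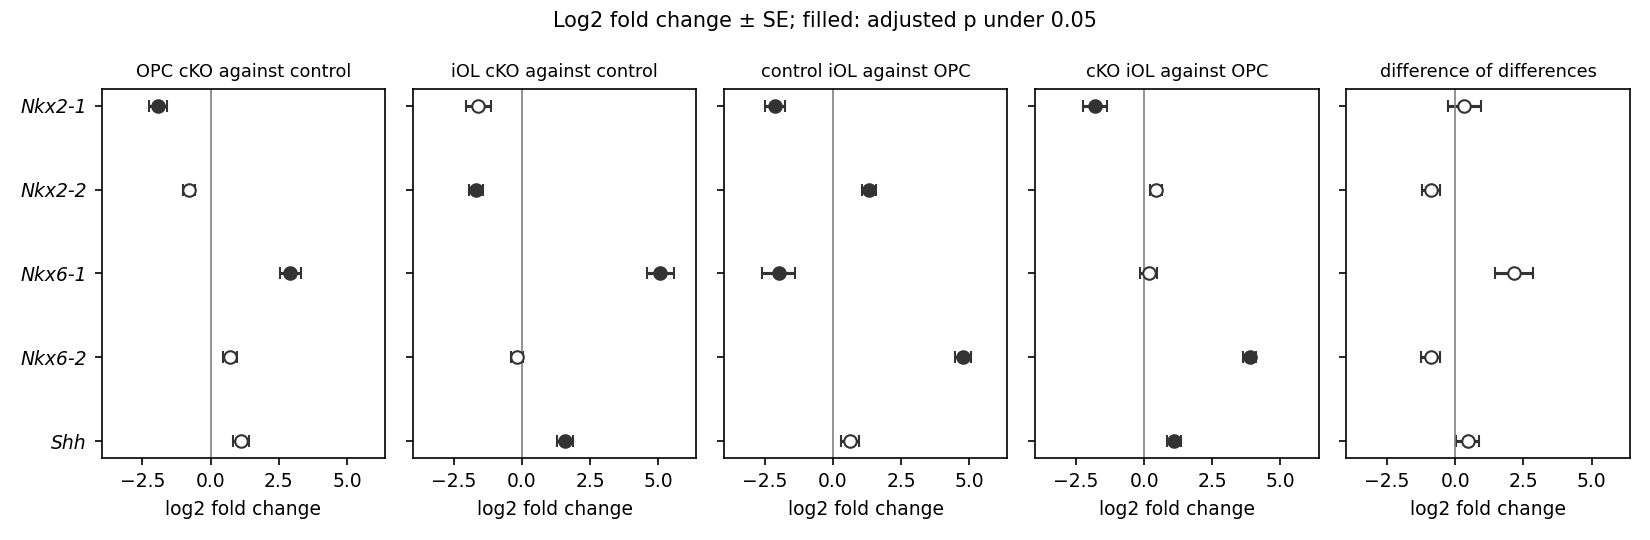
Log2 fold change (horizontal axes) with its standard error for the 5 genes in the 4 comparisons and in the difference of differences, the cKO effect in iOLs minus that in OPCs. Filled points passed the edgeR test at an adjusted p under 0.05. Nkx6-1 is the gene farthest to the right in both cKO panels, and Nkx6-2 in both stage panels.

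Shh (chromosome 5, 28456840 to 28467101), the ligand, was low in every library, and all 5 cKO libraries lay above all 4 control libraries. It had 12 and 20 counts in control OPCs and 39, 32 and 38 in cKO OPCs, or 0.703 and 1.05 CPM against 2.12, 1.72 and 1.96 CPM. Control iOLs had 22 and 27 counts (1.25 and 1.50 CPM), and cKO iOLs 80 and 76 (4.26 and 4.02 CPM). The 4 groups did not overlap in any neighbouring pair of their order, which was cKO iOLs, cKO OPCs, control iOLs and control OPCs from the top. Shh was called in iOLs, at a log2 fold change of 1.58 ± 0.29 for cKO over control (edgeR adjusted p = 0.00907), a ratio of 3.01 with an exact 95% interval of counting error alone of 2.17 to 4.24. In OPCs it was at 1.13 ± 0.29 (edgeR adjusted p = 0.0769, ratio 2.18, counting interval 1.46 to 3.34) and missed the threshold. The libraries of both groups did not overlap for 34.3% of all genes in the OPC cKO comparison, 67.9% in the iOL one, 71.9% between control stages and 69% between cKO stages, so that separation alone is common here.

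Between stages, Shh was called higher in iOLs than in OPCs within cKO cells (log2 1.10 ± 0.25, edgeR adjusted p = 0.00696), a call that ended without cKO iOL replicate 1 (0.0561). Within controls the same difference was 0.64 ± 0.33 (edgeR adjusted p = 0.139), and the 2 stage effects differed by 0.46 ± 0.41 (edgeR adjusted p = 0.572). The iOL call for cKO over control ended without any 1 of the 4 iOL libraries, with edgeR adjusted p of 0.0530 to 0.0944 in those fits and of 0.0026 to 0.0944 over all settings. The OPC difference had the same sign within day 7 (1.31) and within day 6 (0.83), as log2 differences of 2 cKO libraries against 1 control and of 1 against 1.

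Nkx6-1 (chromosome 5, 101659184 to 101664711), a factor of ventral spinal progenitors and motor neuron specification, showed the largest cKO difference of the 5 genes at both stages. Control OPCs held 11 and 14 counts (0.644 and 0.737 CPM) and cKO OPCs 114, 104 and 78 (6.18, 5.60 and 4.03 CPM). Control iOLs held 4 and 2 counts (0.227 and 0.111 CPM) and cKO iOLs 80 and 143 (4.26 and 7.56 CPM). Every cKO library lay above every control library, and the 2 cKO groups overlapped each other. Only 2 control libraries reached 10 counts, so the row met the limit of the table through its cKO libraries, and this separation is a description.

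Nkx6-1 rose in cKO OPCs by a log2 fold change of 2.92 ± 0.39 (edgeR adjusted p = 0.00379), a ratio of 7.57 (counting interval 5.03 to 11.9). In cKO iOLs it rose by 5.08 ± 0.50 (edgeR adjusted p = 0.000696), a ratio of 35.1 (counting interval 15.9 to 96.7, from 6 counts in the control group). Both calls held in all 16 other fits, leaving out each library included. The row met the limit of the table through its cKO libraries, so these calls too are descriptions. The cKO effect was larger in iOLs by 2.16 ± 0.69, and this difference was not called (edgeR adjusted p = 0.144). In control cells Nkx6-1 was 3.99-fold lower in iOLs than in OPCs (standard error 0.61 on the log2 scale, edgeR adjusted p = 0.0246), a call on 25 and 6 summed counts that ended in 5 of 16 other fits (edgeR adjusted p of 0.018 to 0.143 over all). cKO cells were at 0.17 ± 0.30 for the same step (edgeR adjusted p = 0.693).

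Nkx6-2 (chromosome 7, 139579376 to 139582797), the relative of Nkx6-1 used by differentiated oligodendrocytes, was set by stage. OPCs held 7.50 and 4.58 CPM in controls and 11.5, 9.69 and 8.46 CPM in cKO cells. iOLs held 183 and 145 CPM in controls and 122 and 166 CPM in cKO cells. The iOL groups overlapped, and each lay far above both OPC groups. The increase from OPC to iOL was 4.77 ± 0.28 in controls and 3.87 ± 0.23 in cKO cells on the log2 scale (edgeR adjusted p = 4.99e-06 and 4.57e-06), and both calls held in all 16 other fits. These 2 increases differed by −0.90 ± 0.34 (edgeR adjusted p = 0.206).

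Neither cKO comparison called Nkx6-2. In OPCs it was at 0.72 ± 0.25 (edgeR adjusted p = 0.134), with all 3 cKO libraries above both controls, and in iOLs at −0.18 ± 0.23 (edgeR adjusted p = 0.727). The 2 Nkx6 genes thus differed in where they were high: in iOLs without Eed Nkx6-1 was called higher and Nkx6-2 was not called, and no test of one gene against the other was run.

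Nkx2-2 (chromosome 2, 147176485 to 147195434), a factor that promotes oligodendrocyte differentiation, rose during differentiation in controls and was lower without Eed in iOLs. Control OPCs held 172 and 103 CPM and control iOLs 373 and 317 CPM. cKO OPCs held 96.6, 72.3 and 69.0 CPM and cKO iOLs 97.6 and 117 CPM. Every control iOL library lay above all 7 other libraries, and the cKO iOLs overlapped the control OPCs.

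The rise from OPC to iOL was 1.32 ± 0.25 in controls (edgeR adjusted p = 0.00218) and 0.44 ± 0.22 in cKO cells (edgeR adjusted p = 0.148) on the log2 scale. The difference between these rises, −0.89 ± 0.33, was not called (edgeR adjusted p = 0.204). In iOLs Nkx2-2 fell by 1.68 ± 0.25 on the log2 scale without Eed (edgeR adjusted p = 0.00377), a call that held in all 16 other fits. In OPCs it was at −0.79 ± 0.22 (edgeR adjusted p = 0.0905). That OPC value moved with the control library used, from −0.38 without control replicate 1 to −1.11 without control replicate 2, and the 2 controls themselves differed by 0.73 on the log2 scale. With postnatal day as a term it passed, at −0.84 (edgeR adjusted p = 0.0111, in a range over all settings of 0.00575 to 0.328).

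Nkx2-2os, the antisense transcript at the same locus (147184083 to 147331681), overlaps Nkx2-2. Which libraries were stranded is not stated, so reads of the overlap cannot be assigned with certainty. Nkx2-2os held 2.69 to 6.30 CPM over the 9 libraries and passed in no comparison, with a cKO difference of −0.10 ± 0.34 in iOLs (edgeR adjusted p = 0.910).

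Myelin markers were lower beside Nkx2-2 in cKO iOLs, where edgeR called 3 of the 6 measured lower (median log2 −2.26), against 3.51% of all genes. From control OPCs to control iOLs, where Nkx2-2 rose, they did not rise as a set (median −0.18). In that comparison 1 was called higher and 1 lower, against 21% and 25.3% of all genes. The summed CPM of 6 measured myelin markers of 7, Mbp, Mog and Cnp among them, was 4280 to 4457 in control iOLs and 953 to 1306 in cKO iOLs, and 2097 to 6337 and 962 to 2656 in control and cKO OPCs. In such bulk cultures, fewer cells of a type and less RNA per cell cannot be told apart, and the part of cell make-up in the Nkx2-2 difference was not tested. Pdgfra, the PDGF receptor of OPCs that Nkx2-2 is known to repress, stood at 547 CPM in control and 728 CPM in cKO iOLs on average, and was not called (log2 0.41 ± 0.21, edgeR adjusted p = 0.298).

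Nkx2-1 (chromosome 12, 56531935 to 56536908), the ventral forebrain factor, was lower without Eed and lower in iOLs. It stood at 6.80 and 5.37 CPM in control OPCs and at 1.84, 1.88 and 1.03 CPM in cKO OPCs. Control iOLs held 1.59 and 1.17 CPM, and cKO iOLs 0.319 and 0.582 CPM, on 6 and 11 counts. Control OPCs lay above all other libraries, cKO iOLs lay below them, and cKO OPCs and control iOLs overlapped.

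The OPC difference was −1.94 ± 0.32 (edgeR adjusted p = 0.0133), a ratio of 0.261 (counting interval 0.202 to 0.336), and was of like size within day 7 (−1.81) and within day 6 (−2.26). The call ended without control OPC replicate 1 (edgeR adjusted p = 0.0737) and without cKO OPC replicate 1 (0.0504), in a range over all settings of 0.000236 to 0.0737. In iOLs the cKO difference was −1.60 ± 0.46 (edgeR adjusted p = 0.0583) and missed the threshold, and it passed in 4 of 16 other fits (range 0.0182 to 0.343). The fall from OPC to iOL was called in controls (log2 −2.14 ± 0.37, edgeR adjusted p = 0.00148) and in cKO cells (−1.80 ± 0.43, edgeR adjusted p = 0.00868). The latter call ended without cKO iOL replicate 1 (edgeR adjusted p = 0.0880).

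Markers of other cells were read beside these genes, since Shh, Nkx6-1 and Nkx2-1 are known from neurons and their progenitors as well. All 10 neuron markers were in the table, and their summed CPM was 172 to 258 in control OPCs, 238 to 337 in cKO OPCs, 198 to 211 in control iOLs and 310.5 to 347 in cKO iOLs. The 7 astrocyte markers summed to 6262 to 6480 CPM in control iOLs and 9430 to 11341 CPM in cKO iOLs, and overlapped between the OPC groups (3273 to 9338 and 2944 to 7611). In OPCs of both genotypes all 7 were higher in the libraries of postnatal day 6 than in those of day 7. Slc1a3, for example, was at 2980 (control) and 2696 CPM (cKO) on day 6. On day 7 it was at 876 (control), 962 and 1039 CPM (cKO). Of the microglia markers 1 of 6 had a row, at 1.12 to 2.48 CPM, and of the endothelial ones 2 of 6, the VEGF receptors Flt1 and Kdr, at 1.87 to 2.79 CPM in control OPCs, 9.70 to 10.5 in cKO OPCs, 35.3 to 40.4 in control iOLs and 87.5 to 103 in cKO iOLs. The ependymal and choroid plexus markers (2 of 5) summed to 24.8 to 34.4 CPM in control and 47.5 to 49.5 CPM in cKO iOLs, with 12.5 to 18.7 and 12.5 to 13.4 in the OPC groups. The pericyte and fibroblast markers (5 of 6) overlapped between genotypes at both stages. Neuron, astrocyte, endothelial and ependymal marker sums were higher in cKO iOLs, where Shh and Nkx6-1 were higher too. There edgeR called 2 of the 10 neuron markers higher and 0 of the 7 astrocyte markers, against 7.08% of all genes. It also called 2 of 2 endothelial, 1 of 2 ependymal and choroid plexus and 1 of 5 pericyte and fibroblast markers higher. In cKO OPCs 2 of 10 neuron and 2 of 2 endothelial markers were called higher, against 2.94% of all genes. Flt1 held 6 and 3 counts in control OPCs and 11 and 10 in control iOLs. All iOL log2 fold changes of neuron and astrocyte markers were positive, at 0.30 to 2.68 for neuron and 0.08 to 0.92 for astrocyte markers. Gfap made up most of the astrocyte sum in iOLs, at 3778 and 3655 CPM in control and 6115 and 7938 CPM in cKO libraries. The part of such cells in these results was not tested.

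Hedgehog pathway genes were read to place Shh among its partners, from lists ordered by role. Of the 8 measured genes for ligands and their release, 2 rose in cKO OPCs, Scube1 (log2 1.40 ± 0.24, edgeR adjusted p = 0.0147) and Scube3 (1.80 ± 0.25, 0.0056), which encode secreted proteins of the family that helps release Hedgehog from the producing cell. In cKO iOLs Shh and Scube1 (1.13 ± 0.28, edgeR adjusted p = 0.0302) rose. None fell. Of all genes 2.94% rose and 0.303% fell in cKO OPCs, and 7.08% rose and 3.51% fell in cKO iOLs. The list, which includes Shh itself, had a median log2 fold change of 0.56 in OPCs and 0.66 in iOLs, against −0.02 and 0.00 over all genes. Without control OPC replicate 1 the OPC count was 1, since Scube3 was then at an edgeR adjusted p of 0.0518.

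Of the 10 receptors, co-receptors and ligand-binding proteins, 1 rose in cKO OPCs and 4 in cKO iOLs, against 2.94% and 7.08% of all genes. None fell, against 0.303% and 3.51%. Cdon, a co-receptor of Patched, rose in OPCs from 17.3 and 21.5 CPM to 79.2, 82.8 and 62.8 CPM (log2 1.95 ± 0.22, edgeR adjusted p = 0.00168) and in iOLs by 0.89 ± 0.23 (0.0386). The other 3 in iOLs were the co-receptors Gas1 (1.52 ± 0.15, edgeR adjusted p = 0.00071) and Boc (0.99 ± 0.26, 0.0439) and the glypican Gpc3 (1.17 ± 0.28, 0.0301), which binds Hedgehog at the cell surface. Gas1 was also called for a larger cKO effect in iOLs than in OPCs (1.59 ± 0.20, edgeR adjusted p = 0.0109), a call that ended without 3 of the 9 libraries in turn. The list medians were 0.29 in OPCs and 0.76 in iOLs. The OPC call of Scube1 ended without cKO OPC replicate 1 or 2, and its iOL call without either of these or any 1 of the 4 iOL libraries. Gas1 in iOLs and Cdon in OPCs held their calls without each library, and the iOL calls of Boc, Cdon and Gpc3 ended without 6, 5 and 5 of the 9 libraries in turn. The Boc call also ended with a replicate block (edgeR adjusted p = 0.0620) and with RLE size factors (0.0503). The receptors themselves were not called: Ptch1 stood at 0.06 ± 0.30 in OPCs and 0.21 ± 0.33 in iOLs, and Smo, the transducing receptor that Patched holds inactive, at −0.04 ± 0.30 and 0.63 ± 0.33 (edgeR adjusted p of 0.299 or more).

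Of the 9 measured transducers, among them Gli2, Gli3 and Sufu, edgeR and DESeq2 called 0 in either cKO comparison and 0 had an unadjusted edgeR p under 0.05, with medians of −0.01 in OPCs and 0.06 in iOLs. Gli1 has no row in the table and was not analysed here. Of 8 measured Hedgehog target genes, which include Nkx2-2 and Nkx6-1, Nkx6-1 rose in cKO OPCs, where 2.94% of all genes rose. The row of Nkx6-1 met the limit of the table through its cKO libraries. In cKO iOLs Nkx6-1, Ccnd1 (log2 1.40 ± 0.14, edgeR adjusted p = 0.00071) and Mycn (1.04 ± 0.18, 0.00806) rose and Nkx2-2 fell. There 7.08% of all genes rose and 3.51% fell. Ccnd1 encodes cyclin D1 and Mycn a growth-promoting transcription factor, and both answer to many signals besides Hedgehog. Ccnd1 held its call without each library, and Mycn lost it without control iOL replicate 1 or 2 or cKO iOL replicate 1. Ptch1 and Hhip, targets that report the pathway directly, were not called in either cKO comparison. Ptch1 differed widely between the control OPC libraries, at 109 CPM in replicate 1 (day 7) and 263 CPM in replicate 2 (day 6). The cKO OPC libraries lay between them, at 187 and 172 CPM on day 7 and 225 CPM on day 6.

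**Figure D4:**
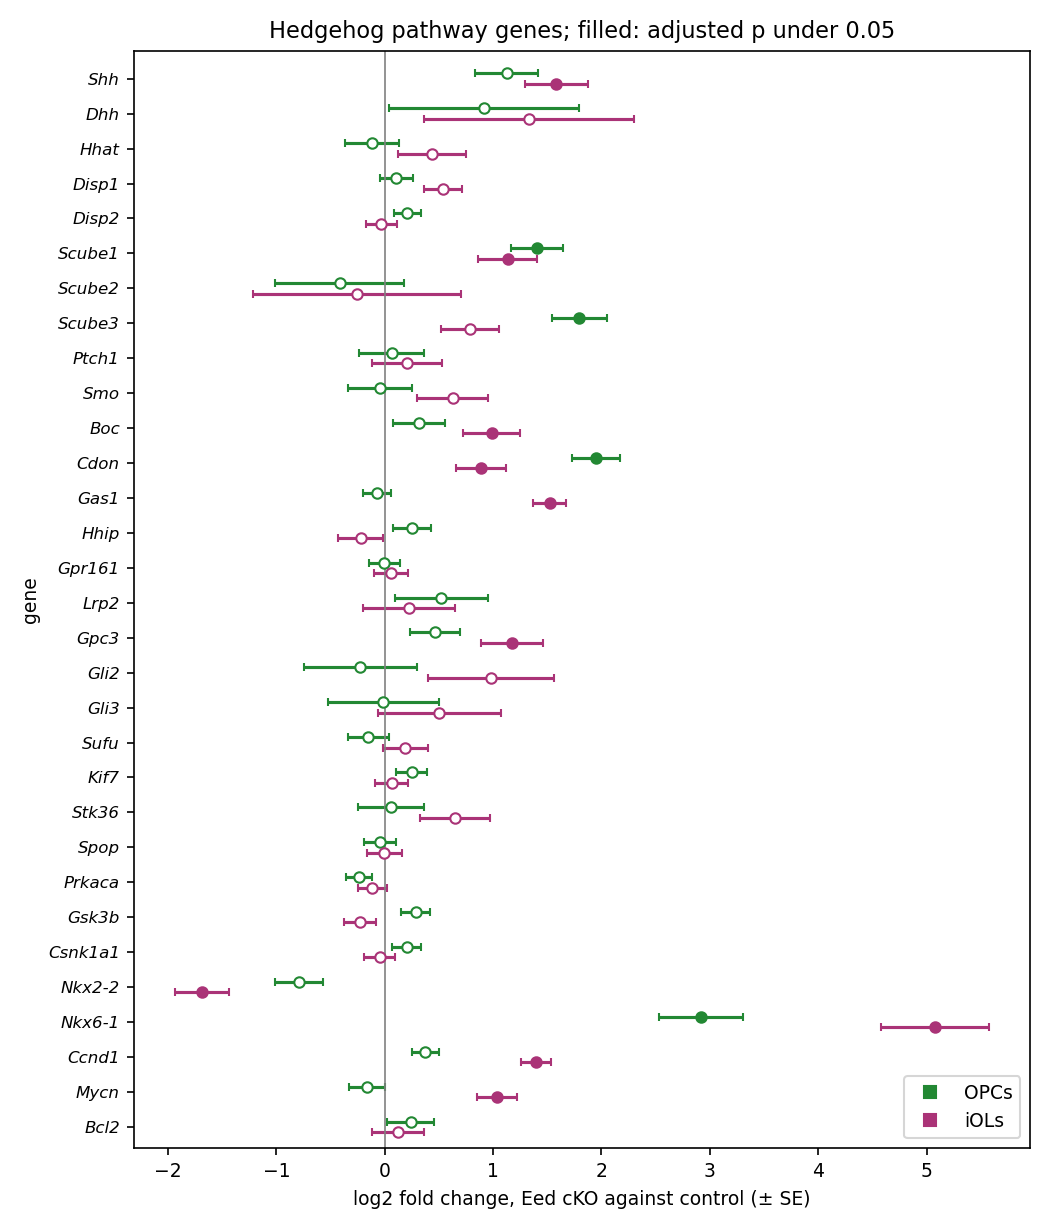
Log2 fold change of Eed cKO against control (horizontal axis) with its standard error for Hedgehog pathway genes of the lists, from ligands at the top through receptors and transducers to targets, in OPCs (green) and iOLs (purple). Filled points passed the edgeR test at an adjusted p under 0.05. Nkx6-1 stands at 2.92 and 5.08, Nkx2-2 at −0.79 and −1.68, and the points of Ptch1 lie near 0.

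The stage comparison was read for the same lists. From OPC to iOL in controls 4 of the 8 ligand and release genes fell and none rose, where 25.3% of all genes fell and 21% rose. Those that fell included Disp2, a transporter of the ligand (log2 −1.12 ± 0.14, edgeR adjusted p = 0.000244), Hhat, which acylates it (−1.63 ± 0.30, 0.00205), and Scube2 (−3.98 ± 0.81, 0.00351). Of the 10 genes of the receptor list 4 fell and 1 rose, with the ligand-binding inhibitor Hhip at −1.60 ± 0.20 (edgeR adjusted p = 0.00025) and Lrp2, a large endocytic receptor, at 2.66 ± 0.46 (0.00147). Without control OPC replicate 1 the receptor list had 8 lower and 1 higher, and the ligand list 5 lower. Of the transducers Gsk3b passed (0.46 ± 0.15, edgeR adjusted p = 0.0285), a call that ended without control OPC replicate 1 (0.0836), without any 1 of the 4 iOL libraries (0.0504 to 0.143) and with only the groups compared (0.0663), and Stk36 (0.58 ± 0.33), Prkaca (0.15 ± 0.13) and Gli2 (−0.92 ± 0.58) did not pass. Of the targets 5 fell and 1, Nkx2-2, rose.

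Neighbouring patterning factors were counted in the same way. Of 20 other ventral neural tube factors 6 had a row. In cKO OPCs 2 rose, against 2.94% of all genes. In cKO iOLs 3 rose and 1 fell, against 7.08% and 3.51%. Foxa1, a floor plate and endoderm factor, rose in cKO OPCs from 1 and 4 counts to 56, 38 and 40 (log2 4.04 ± 0.51, edgeR adjusted p = 0.00277) and in cKO iOLs from 2 and 4 counts to 27 and 32 (3.17 ± 0.53, 0.0064), the latter not without control iOL replicate 1 (0.0719). The interneuron and midbrain factor En1 rose in OPCs (1.23 ± 0.23, edgeR adjusted p = 0.023) and iOLs (2.23 ± 0.28, 0.00165), the OPC call ending without cKO OPC replicate 1 or 2 or either cKO iOL library, or with only the groups compared. Without control OPC replicate 1 the OPC count of this list was 3 in place of 2. Olig2, which defines the progenitor domain of motor neurons and OPCs, fell in cKO iOLs (−0.67 ± 0.15, edgeR adjusted p = 0.0252), a call that ended without any 1 of the 4 iOL libraries. Foxa1 was under 10 counts in every control library and has a row only through cKO libraries.

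Of 14 factors of intermediate and dorsal domains, which Nkx factors oppose in the neural tube, 9 had a row, and 1 rose in cKO OPCs and 4 in cKO iOLs, against 2.94% and 7.08% of all genes. Msx1, a dorsal BMP-induced factor, rose at both stages (log2 1.80 ± 0.30 in OPCs and 2.47 ± 0.33 in iOLs, edgeR adjusted p = 0.014 and 0.00227). Gsx1 (2.11 ± 0.33, edgeR adjusted p = 0.0047), Gbx2 (2.14 ± 0.46, 0.0186) and Dbx2 (1.35 ± 0.35, 0.0399) rose in iOLs. There Nkx2-2 was called lower and Nkx6-1 higher, and a link between these changes was not tested. Pax6, the factor that Nkx2-2 opposes at their shared border, was at 0.09 ± 0.30 and 0.41 ± 0.33 (edgeR adjusted p = 0.862 and 0.551), and Irx3 at −0.23 ± 0.18 and 0.07 ± 0.20 (0.428 and 0.893). The OPC call of Msx1 ended without control OPC replicate 1, which left 0 of the 9 called there, and also without cKO OPC replicate 1 and with only the groups compared. The iOL call of Gsx1 ended without control iOL replicate 1, and those of Dbx2 and Gbx2 ended without any 1 of the 4 iOL libraries.

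Of 10 ventral forebrain factors that act with Nkx2-1, 5 had a row. In cKO iOLs 2 rose and none fell, where 7.08% of all genes rose and 3.51% fell. In OPCs edgeR called none, 2 had an unadjusted p under 0.05 and DESeq2 called 1. None of the 10 other NK-class homeobox genes of the list has a row in the table, so they were not analysed here. Of 18 oligodendrocyte lineage transcription factors, among them Nkx2-2 and Nkx6-2, edgeR called none in cKO OPCs, where 7 had an unadjusted p under 0.05 and DESeq2 called 2. In cKO iOLs 3 rose and 6 fell, against 7.08% and 3.51% of all genes. Those that fell were Nkx2-2, Myrf, the activator of myelin genes (log2 −1.76 ± 0.30, edgeR adjusted p = 0.00664), Zfp488 (−1.45 ± 0.17, 0.00149), Tcf7l2 (−1.09 ± 0.22, 0.0141), Sox8 (−0.77 ± 0.13, 0.00633) and Olig2. Those that rose included Etv5 (1.13 ± 0.22, edgeR adjusted p = 0.011) and Sox9 (0.54 ± 0.15, 0.0436), which are factors of progenitors and precursors. Zfp488 held its call without each library. The calls of Myrf (without cKO iOL replicate 1), Sox8 (control iOL 1 or cKO iOL 2), Etv5 (control iOL 1 or 2 or cKO iOL 1), Tcf7l2 (any iOL library) and Sox9 (any iOL library, or cKO OPC 1 or 2) did not hold. Sox10, the factor that specifies the lineage, was at −0.49 ± 0.17 in iOLs (edgeR adjusted p = 0.108) and Nkx6-2 was not called either. From OPC to iOL in controls 5 of the 18 rose and 6 fell, against 21% and 25.3% of all genes, with Nkx6-2 and Nkx2-2 among the former and the growth-factor-induced Etv4 (−4.10 ± 0.23, edgeR adjusted p = 4.01e-06) and the Notch target Hes5 (−4.02 ± 0.38, 4.61e-05) among the latter. Olig1 fell too in the ventral list (−1.75 ± 0.21, edgeR adjusted p = 0.000167), as did Irx5 in the dorsal list (−0.77 ± 0.20, 0.0127), and Sox6 rose in the forebrain list (0.72 ± 0.18, 0.0103). The calls of Irx5 (0.0960) and Sox6 (0.0778) ended without control iOL replicate 1, and that of Irx5 also with only the groups compared (0.0520).

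Genes whose profile over the 9 libraries was most like that of each member were found by the root mean square difference of log2 CPM, each gene centred on its own mean, among 13206 other genes with a mean of at least 1 CPM. They share the libraries, and a small difference says nothing of shared control. For Nkx2-1 they were Evi2a, S100a1 and S100a13 (0.45, 0.47 and 0.53 on the log2 scale, where Nkx2-1 itself had an SD of 1.28). For Nkx2-2 they were Cnp, which encodes a myelin enzyme, the transcription factor gene Mitf and the glial calcium-binding protein gene S100b (0.23, 0.25 and 0.26, SD 0.88). Cnp ran at 658, 326, 1420 and 393 CPM on average in control OPCs, cKO OPCs, control iOLs and cKO iOLs, where Nkx2-2 ran at 138, 79.3, 345 and 107 CPM.

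For Nkx6-1 the nearest profiles were those of Irs4, an insulin receptor substrate, and the developmental factors Shox2 and Sp8 (0.52, 0.55 and 0.56, SD 1.98), all of which were lowest in controls. For Nkx6-2 they were Rasgef1c, Kcna5 and Tmprss5 (0.29, 0.34 and 0.37, SD 2.26), all of which were far higher in iOLs. For Shh they were K230010J24Rik, Celsr2 and Dapk1 (0.19, 0.22 and 0.22, SD 0.80). Celsr2, a cadherin of planar cell polarity, ran at 194, 339, 306 and 644 CPM on average in control OPCs, cKO OPCs, control iOLs and cKO iOLs.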

How the data were processed

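Raw read counts per gene, as deposited by the authors, were used for 9 RNA libraries. The submitters' processing notes name cutadapt 1.14, STAR 2.6.0, featureCounts of Subread 1.6.2 and build mm10, and per the labels RNA above 100 ng was prepared with a stranded polyA kit and RNA below it with an amplifying kit. A second header line (1) was left out. Its values show that every gene has 1 or more counts in each library and reaches 10 in 4 or more, and genes below that were not analysed here. Each count has a Poisson counting error, and the exact 95% intervals of ratios pool the libraries of a group and cover counting error only.

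The analysis ran in R 4.3.3 with edgeR 4.0.16 and limma 3.58.1 (TMM factors, filterByExpr with minimum count 10, which removed no gene, 4 group means, quasi-likelihood test, 5 residual degrees of freedom, common dispersion 0.0265), and adjusted over all 13549 genes. The test was tried on simulated data first. A standard error is the absolute log2 fold change divided by the root of F. For profiles, log2 CPM took prior count 2. Alternatives were DESeq2 1.42.0, size factors by RLE, a filter of 1 CPM in 4 libraries or none, only the groups compared, a replicate block, postnatal day as a term, and leaving out each library. Named are the 5 genes, up to 4 of each list with the smallest adjusted p in either cKO comparison or in control iOLs against OPCs, Ptch1, Gli1, Smo, Olig2, Sox10 and Pdgfra in any case, and the 3 nearest profiles of each member. Dbx2, Gbx2, Boc, Cdon, Scube3, Myrf, Zfp488, Tcf7l2, Sox8, Pax6, Gli3 and Sufu fall outside this rule and were named after their values were seen. The members and lists were chosen with earlier results of these data known. Positions, promoters and 97.9% of the symbols were matched in RefSeq tables of GRCm38.p6. The chromatin immunoprecipitation samples were not analysed here. Some genes that the rule names are not reported here, though counts over lists include them.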

Additional observations from a re-analysis of the deposited data

How the results depend on the processing

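Over 13549 genes, the number called moved with the fit more than the 5 genes did. For OPC cKO against control, 440 genes passed in edgeR, 1006 with DESeq2, 1382 with postnatal day as a term and 190 with only the groups compared, and 164 (without cKO OPC replicate 1) to 3935 (without control OPC replicate 2) when each library was left out. For iOL cKO against control, 1434 passed, 2680 with postnatal day, 3699 with only those groups, and 349 to 2236 with each library left out. The stage comparisons gave 6270 in controls (4057 to 7236) and 5461 in cKO cells (3080 to 6883), and the difference of differences 248 (2 to 2156), 823 with DESeq2 and 1202 with postnatal day. The cause of these shifts was not tested.

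The cKO calls of Nkx6-1 at both stages and of Nkx2-2 in iOLs held in all 16 other fits. The row of Nkx6-1 met the limit of the table through its cKO libraries, so its calls are descriptions. In OPCs, Nkx2-2 passed with DESeq2 (−0.77) and postnatal day (−0.84), Nkx6-2 with DESeq2 (0.74) and Shh with postnatal day (1.17). Within day 6 Nkx2-1 was at −2.26 and Nkx6-1 at 2.29, and within day 7 Nkx2-2 was at −1.04. In iOLs Nkx2-1 passed with DESeq2 (−1.61), postnatal day (−1.60) and only those groups (−1.58). The control stage call of Nkx6-1 ended with only those groups (−1.99), and Nkx2-2 passed between cKO stages with postnatal day (0.76).

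With each library left out, the OPC cKO log2 fold changes ranged from −2.10 to −1.70 (Nkx2-1), −1.11 to −0.38 (Nkx2-2) and 0.87 to 1.45 (Shh), and the iOL ones from −2.09 to −1.23 (Nkx2-1), −0.42 to 0.021 (Nkx6-2, whose sign turned without cKO iOL replicate 1) and 1.46 to 1.72 (Shh). Between control stages Nkx6-1 ranged from −2.57 to −1.58. Between cKO stages Nkx2-1 ranged from −2.29 to −1.44, Nkx2-2 from 0.30 to 0.60, Nkx6-1 from −0.31 to 0.52 (its sign turned without cKO iOL replicate 2) and Shh from 1.01 to 1.16. The Nkx2-1 difference of differences ranged from −0.15 (without cKO iOL replicate 2) to 0.70.

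The difference of replicate 1 from replicate 2 correlated at −0.13 to 0.24 over the pairs of groups, highest between control and cKO iOLs. For OPCs this cannot show pairing, since control replicates 1 and 2 differ in postnatal day and cKO replicates 1 and 2 do not. Whether same-numbered libraries were paired is not known. With a replicate block, 1941 genes passed in the OPC cKO comparison and 1049 in the difference of differences, Nkx6-1 between cKO stages turned to −0.029, and no call of the 5 genes changed. Counts under about 20 a library, as for Nkx6-1 in controls and Nkx2-1 in cKO iOLs, limit the precision of those folds.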
